A study of Caenorhabditis elegans with 2 samples.

Results

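C-type lectin genes of Caenorhabditis elegans, named clec, were examined in whole worms grown with and without single-walled carbon nanotubes. Members were all array probe sets that the platform's annotation assigned to 1 gene whose symbol begins with clec-, which gave 236 probe sets for 220 genes, out of 20766 single-gene probe sets for 17138 genes. The a-SWCNT array held RNA of wild-type N2 worms exposed as synchronised L1 larvae to amide single-walled carbon nanotubes, at a concentration of 500 μg/mL, and kept at 22 °C over 48 hr. The control array held RNA of N2 worms cultured over the same 48 hr and at 22 °C without nanotubes. By their age label both samples were worms of the L4, or last larval, stage. The growth medium in the protocol was agar seeded with Escherichia coli OP50, so bacteria were the food of both groups. There was 1 array per group, hence no value has a replicate or a p-value, and every difference below compares these 2 arrays.

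C-type lectins carry a fold first described in calcium-dependent sugar-binding proteins, in which a loop of the domain can hold a carbohydrate. The nematode family is large, with many secreted members and some anchored in the membrane, and not every member is expected to bind sugar. Several are made in the intestine and respond to bacterial infection, and clec genes are widely used as readouts of the worm's innate immunity, while others act elsewhere, such as clec-38, which affects axon outgrowth.

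Most clec probe sets were dim. After the a-SWCNT array had been multiplied by 2.50 to match the trimmed mean of the control array, a probe set was called measured where its signal was at or above 56.7, a floor set at the median worm signal over the scaled arrays. Of the 236 clec probe sets, 77 (32.6%) were measured on at least 1 array, against 55.2% of all single-gene probe sets. There were 62 measured on both arrays, 6 on the a-SWCNT array only and 9 on the control array only. The 159 others had median signals of 12.4 on the a-SWCNT array and 10.2 on the control array, and no ratio is given for them. All 18 clec genes annotated as pseudogenes were among these, with signals of at most 31.7 on the a-SWCNT array and 23.0 on the control array. The measured probe sets belonged to 70 genes, and 150 clec genes had none.

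Measured clec probe sets lay on both sides of equality, with a larger share of 2-fold ratios in each direction than all measured probe sets. Of the 77, 6 (7.79%) were higher by 2-fold or more on the a-SWCNT array, against 1.3% of the 11469 measured single-gene probe sets. Another 6 (7.79%) were lower by 2-fold or more, against 4.32% of all. At 1.5-fold, 20 clec probe sets (26.0%) were higher, against 8.18% of all, and 10 (13.0%) were lower, a share near the 14.1% of all. Above 0 were 46 and below 0 were 31, and 46.9% of all measured probe sets were above 0. Of the 62 clec probe sets measured on both arrays, 5 were higher by 2-fold or more (1.32% of all such probe sets) and 4 lower (4.26% of all). In log2, the ratio (a-SWCNT over control) had a median of 0.17 over the 70 measured clec genes and -0.02 over the 9382 measured genes. A probe set enters these counts by reaching the floor on either array, so one measured on a single array was let in by its higher side, and the counts describe the family and are no evidence of a response.

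**Figure D1:**
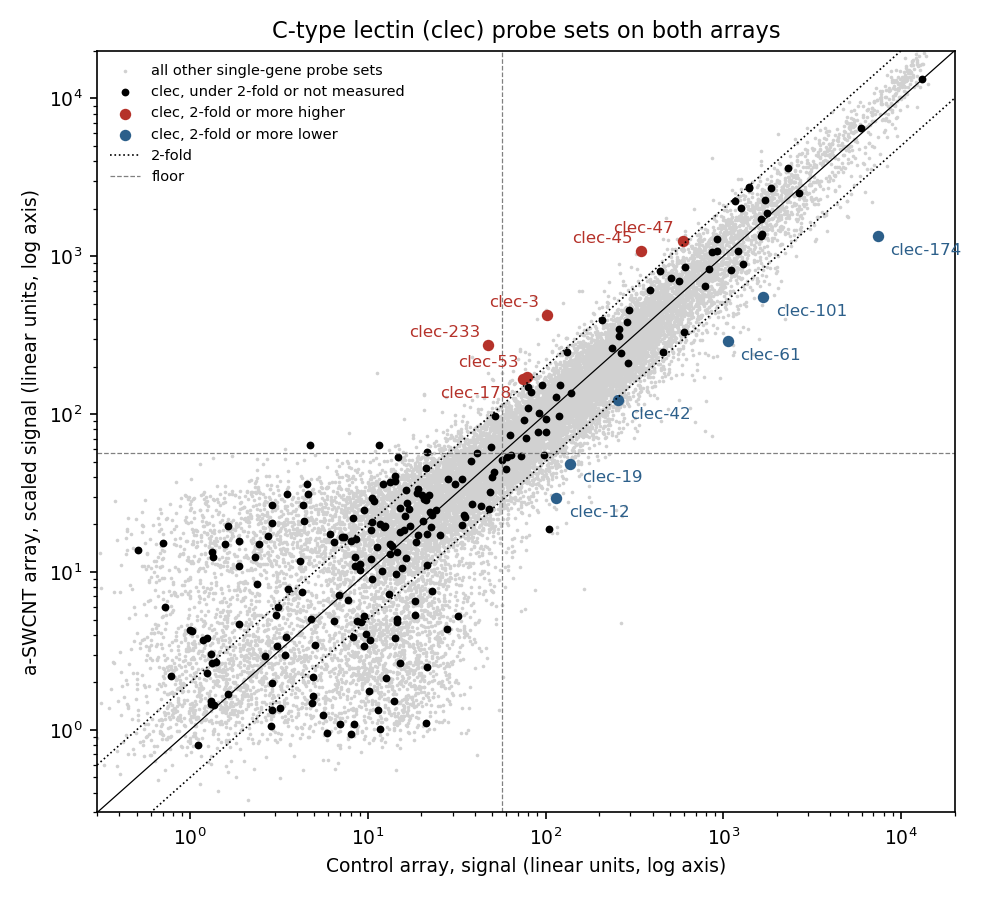
Signal of each clec probe set on the a-SWCNT array after scaling (vertical, log axis) against the control array (horizontal, log axis), with all other single-gene probe sets in grey. Dashed lines mark the floor of 56.7 and dotted lines a 2-fold difference; most clec points lie below the floor on both arrays, and coloured points mark the 6 higher and 6 lower clec probe sets whose ratio reached 2-fold once signals below the floor had been raised to it.

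**Figure D2:**
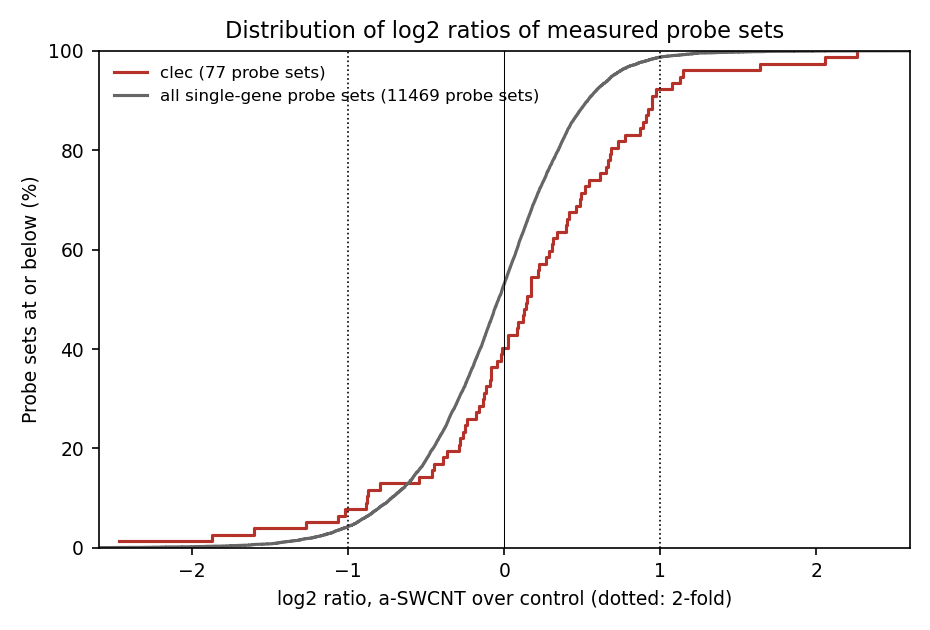
Cumulative share of measured probe sets (percent) by log2 ratio of a-SWCNT over control, for 77 clec probe sets and 11469 single-gene probe sets. The clec curve lies to the right of the other at its median, and a larger share of it lies beyond 2-fold at both ends.

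The split between higher and lower members depended on how the arrays were brought to one level. It was 6 higher and 6 lower with equal trimmed means, 9 and 4 with equal medians, with quantile normalisation and with loess centring, and 12 and 4 with equal 75th percentiles. Scaling to the hybridisation controls, which are spiked in at the hybridisation step, gave 3 higher and 8 lower. As deposited, 1 was higher and 39 were lower among 84 then counted, where 0.0313% of all measured probe sets were higher and 62.6% lower. Over all measured single-gene probe sets, the shares past 2-fold on the higher and on the lower side were 2.26% and 2.9% with equal 75th percentiles. They were 1.84% and 3.49% with equal medians, 1.81% and 3.29% with quantile normalisation, and 1.74% and 3.52% with loess centring. On scaling to the hybridisation controls they were 0.73% and 7.14%. Loess centring counted 73 clec probe sets and the hybridisation controls 76, against 77 with equal trimmed means. The median of all measured genes moved to 0.09 and -0.18 under the scalings to 75th percentiles and to hybridisation controls, and ratios are relative to that level. All 12 called probe sets kept their sign in the 6 scalings other than as deposited. They had been picked at 2-fold under 1 of these scalings, and scaling moved ratios little (clec-3 lay between 1.88 and 2.18 in log2). A kept sign was therefore nearly fixed in advance and is no support for a difference. At least 2-fold apart in all 6 were 7: clec-233, clec-3 and clec-45 higher, and clec-174, clec-61, clec-101 and clec-19 lower.

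The members higher on the a-SWCNT array were all read by probe sets of the plain type (_at), designed to match a single transcript. Of 53 measured plain clec probe sets, 6 were at or beyond 2-fold higher and 4 lower, against 1.41% and 5.03% of all measured plain probe sets. The probe set of clec-233 had a signal of 272 on the a-SWCNT array and 47.6 on the control array. Since the control value lay below the floor, clec-233 was at least 4.80-fold higher. The probe set of clec-3 read 425 on the a-SWCNT array and 102 on the control array, 4.15-fold higher. The next clec gene along the chromosome, clec-2, barely reached the floor on the a-SWCNT array, with 57.7 against 21.6 on the control array, so its ratio was not resolved.

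The signal of clec-45 was 1077 on the a-SWCNT array and 345 on the control array, 3.12-fold higher. It was bright on the a-SWCNT array, bright meaning in the top 10% of single-gene probe sets on that array (from 642 on the a-SWCNT array and from 654 on the control array). Also bright there was clec-47, with 1241 on the a-SWCNT array and 590 on the control array (2.10-fold). The remaining members at 2-fold were dimmer. For clec-178 the signals were 166 on the a-SWCNT array and 75.1 on the control array (2.21-fold), and for clec-53 they were 171 and 78.3 in the same order (2.19-fold). With equal hybridisation controls clec-47, clec-53 and clec-178 came below 2-fold, with log2 ratios of 0.90, 0.96 and 0.98.

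Among the members lower on the a-SWCNT array, clec-174 stood lowest. Its signal was 1334 on the a-SWCNT array and 7398 on the control array, 5.54-fold lower and bright on both. It is read by a probe set of type _x_at, some of whose probes may also bind other similar transcripts, so the signal cannot be assigned to clec-174 alone. The probe set of clec-61, of type _s_at, whose probes match more than 1 transcript, read 289 on the a-SWCNT array and 1058 on the control array (3.66-fold lower). The plain probe set of clec-101 read 551 on the a-SWCNT array and 1677 on the control array (3.04-fold lower). Both clec-61 and clec-101 were bright on the control array and not on the a-SWCNT array.

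The other lower members were dim and read by plain probe sets. The signal of clec-42 was 122 on the a-SWCNT array and 255 on the control array (2.09-fold lower). Below the floor on the a-SWCNT array were clec-19, with 48.5 there and 137 on the control array (at least 2.41-fold lower), and clec-12, with 29.4 there and 115 on the control array (at least 2.03-fold lower). Both clec-42 and clec-12 reached 2-fold in only 2 of the 6 scalings, those with equal trimmed means and equal hybridisation controls, and lay at -0.93 and -0.94 in log2 with equal 75th percentiles.

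**Figure D3:**
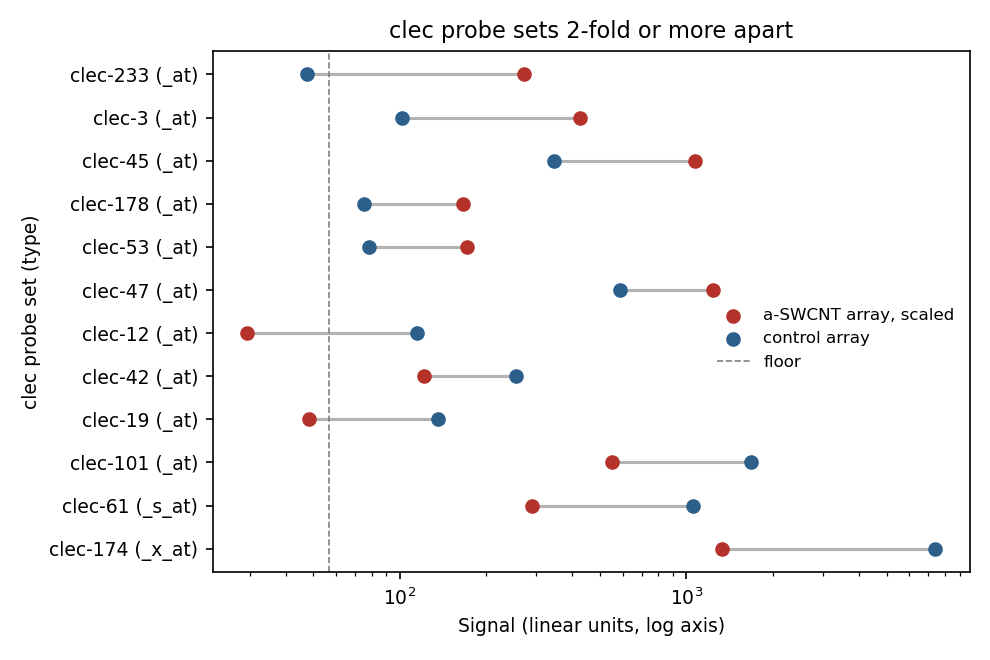
Signals of the 12 clec probe sets at least 2-fold apart, on the a-SWCNT array after scaling (red) and on the control array (blue), on a log axis, with the probe set type in brackets. The dashed line is the floor of 56.7, below which lie the control signal of clec-233 and the a-SWCNT signals of clec-12 and clec-19.

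A guide to error within the arrays comes from genes read by several probe sets. In 1625 genes with 2 measured probe sets, the log2 ratios of the pair differed by a median of 0.42 and a 95th percentile of 1.37. That value is a gap between 2 ratios from the same RNA. It measures neither the spread of 1 ratio about 0 nor variation between worm samples, so it does not sort calls into firm and weak. Of the 12 called clec probe sets, 6 had log2 ratios further than 1.37 from 0 and 6 did not. The 6 further out were clec-233, clec-3, clec-45, clec-174, clec-61 and clec-101. Each of the 12 genes had 1 single-gene probe set, so none was read a second time.

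For 7 clec genes, 2 probe sets were measured, and in 4 of these their ratios had opposite signs. The probe sets of clec-150 differed most, by 0.96 in log2, with 1 at 2009 on the a-SWCNT array and 1253 on the control array and the other at 646 and 785 in the same order. For clec-65 the log2 ratios were 0.08 and -0.55, for clec-87 they were 0.39 and -0.18, and for clec-10 they were 0.17 and -0.39. The pairs of clec-88 (0.49 and 0.15), clec-72 (-0.02 and -0.27) and clec-57 (-0.09 and -0.14) had the same sign. The clec-57 probe set at -0.09 is a bound, measured on the control array only, so its sign was fixed by the floor.

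Bright members numbered 31 probe sets of 27 genes, 13.1% of clec probe sets, against 11.2% of all single-gene probe sets. Bright on both arrays were 23, on the a-SWCNT array only 6 and on the control array only 2. Brightness depends on the probes as well as on the transcript, so it does not rank genes by abundance. By type, 16 of the bright probe sets were plain, 14 of type _s_at and 1 of type _x_at, and the last 2 types may bind other transcripts too. The single bright probe sets of clec-5, clec-17, clec-41, clec-49, clec-50, clec-61, clec-62 and clec-83 were of type _s_at. So were both of clec-65, both of clec-87, the bright one of clec-88 and 1 of clec-72 (the one at -0.02 in log2).

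Several of the brightest members were nearly level between the arrays, unlike clec-174. The signal of clec-63 was 13317 on the a-SWCNT array and 13116 on the control array, a log2 ratio of 0.02. That of clec-50 was 6486 on the a-SWCNT array and 5962 on the control array (0.12), and that of clec-1 was 2512 and 2658 in the same order (-0.08). The signs of these 3 changed between scalings, as did those of clec-62 (0.09), 1 probe set of clec-65 (0.08) and 1 of clec-72 (-0.02). Others of the bright group lay just below 2-fold higher. The signal of clec-66 was 2740 on the a-SWCNT array and 1396 on the control array (1.96-fold), that of clec-48 was 2245 on the a-SWCNT array and 1166 on the control array (1.93-fold), and that of clec-17 was 2684 on the a-SWCNT array and 1395 on the control array (1.92-fold). These 3 passed 2-fold in 2 of the 6 scalings.

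Below them in the bright group, clec-4 had 804 on the a-SWCNT array and 441 on the control array (0.87 in log2), 1 probe set of clec-150 was at 0.68, and clec-83 had 3611 on the a-SWCNT array and 2301 on the control array (0.65). Smaller positive log2 ratios were read for clec-265 (0.54), clec-49 (0.52), clec-52 (0.48), clec-186 (0.31), clec-5 (0.31) and clec-85 (0.22). Negative ones were read for clec-67 (-0.45) and clec-41 (-0.25). In all, 20 of the 31 bright clec probe sets were above 0 and 11 below. The share above 0, 64.5%, was near the 60.1% of all bright single-gene probe sets, and the medians were 0.22 for bright clec and 0.14 for all bright probe sets. On the higher side 2 of the 31 (6.45%) reached 2-fold, against 2.27% of all bright probe sets, and on the lower side 3 did (9.68%), against 5.36%. A probe set entered the bright group by being bright on either array. By this rule clec-45 and clec-47 were let in by the a-SWCNT array only, and clec-61 and clec-101 by the control array only. Each was let in by its higher side, so these shares are no evidence of a response.

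**Figure D4:**
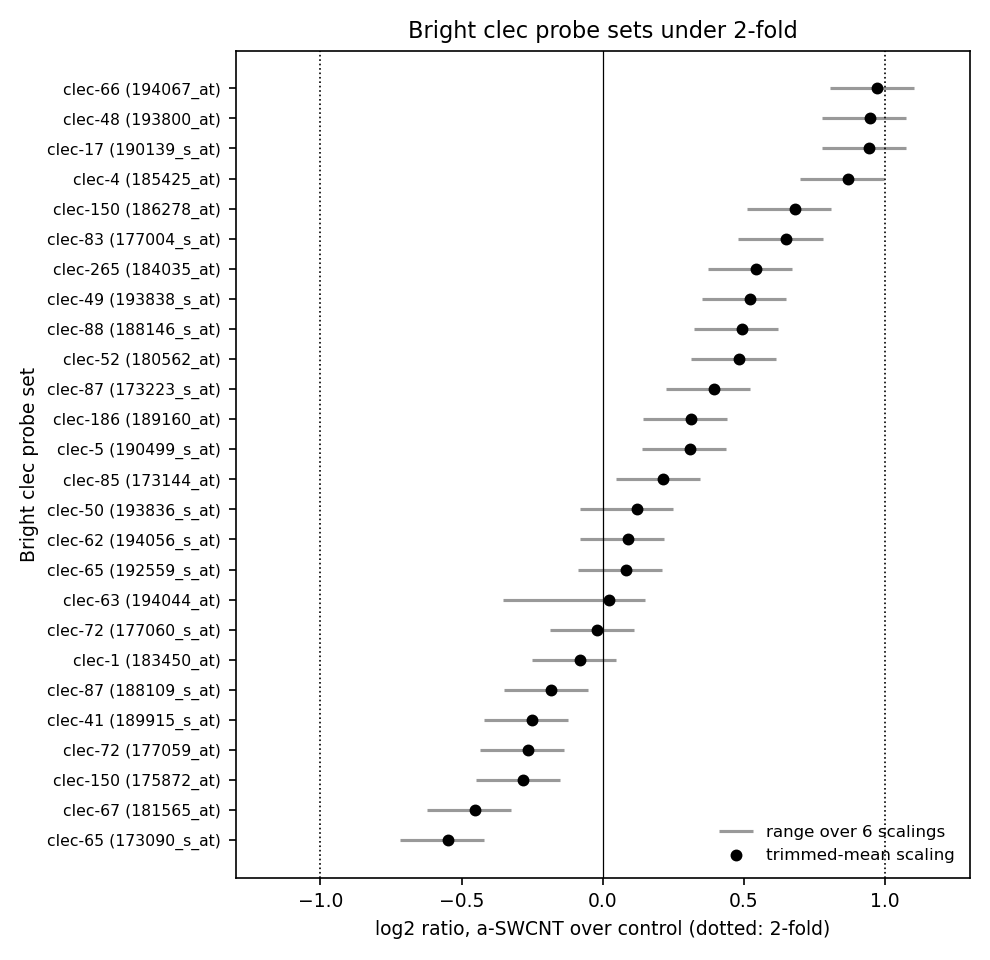
Log2 ratio of a-SWCNT over control for the 26 bright clec probe sets under 2-fold; points give the ratio after trimmed-mean scaling and lines its range over 6 scalings. Ratios run up to 0.97 for clec-66, and 6 probe sets cross 0 between scalings.

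Between the bright and the 2-fold members were 39 measured probe sets that were neither. Their log2 ratios, bounds included, ran between -0.89 and 0.92, with 22 above and 17 below 0. Of those measured on both arrays, the highest was clec-187, with 392 on the a-SWCNT array and 207 on the control array, followed by clec-86, with 247 on the a-SWCNT array and 131 on the control array (0.91), and clec-74, with 149 on the a-SWCNT array and 80.1 on the control array (0.89). Lowest among the same was clec-180, with 248 on the a-SWCNT array and 460 on the control array, followed by clec-76, with 329 on the a-SWCNT array and 601 on the control array (-0.87). The gene clec-59 has no place in this order, since it was below the floor on the a-SWCNT array (18.7, against 104 on the control array, at least 1.84-fold lower).

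Of 14 clec genes listed because they are reported to respond to bacterial infection or to act in defence, 12 were measured and 0 reached 2-fold in either direction, against 1.42% of all measured genes on the higher side and 2.88% on the lower, so that 0 of 12 is near the share of all. Above 0 were 7 and below 0 were 5, with a median log2 ratio of 0.12, against -0.02 for all genes. Highest on this list were clec-66 (0.97), clec-86 (0.91) and clec-4 (0.87). Lowest were clec-60, a gene raised by Gram-positive infection, with 212 on the a-SWCNT array and 292 on the control array (-0.46), and clec-67 (-0.45), a gene used as a readout of the p38 MAP kinase PMK-1. The defence genes clec-49 (0.52) and clec-39 are known for resistance to Serratia marcescens, and clec-39 was below the floor on both arrays, with 15.7 on the a-SWCNT array and 8.07 on the control array. Also below it were clec-70 (25.4 on the a-SWCNT array and 15.1 on the control array) and the axon outgrowth gene clec-38 (1.51 on the a-SWCNT array and 1.31 on the control array). The gene clec-91, listed apart from infection, had 344 on the a-SWCNT array and 258 on the control array (0.42).

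Regulators of immunity and infection-response genes outside the family gave ratios on both sides. Of 18 measured regulators, from the PMK-1 cascade and related pathways, 5 were above and 13 below 0, with a median of -0.15. At least 2-fold lower was 1, hlh-30, which encodes the TFEB homologue, at -1.49 over 2 measured probe sets, 1 of them a bound (2.88% of all measured genes were at least 2-fold lower). Next was the TGF-beta receptor gene sma-6 at -0.95, a mean of 2 probe sets that disagreed, at -1.68 and -0.21. Highest were elt-2, the intestinal GATA factor gene (0.42), and atf-7, a transcription factor gene downstream of PMK-1 (0.31). Among 21 measured infection-response genes, with a median of -0.07, 2 reached 2-fold on the higher side, irg-3 (1.22) and the antimicrobial peptide gene cnc-2 (1.10), against 1.42% of all measured genes. At least 2-fold lower was the invertebrate lysozyme gene ilys-3 (-1.33), followed by the flavin monooxygenase gene fmo-2 (-0.92).

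The clec genes lie partly in groups along the chromosomes. In the gene order of the WBcel235 assembly, used here for neighbours only, 172 of 264 clec genes lay in 50 runs in which at most 2 other genes separated each from the next. Measured on at least 1 array were 22 of 53 probe sets on chromosome II, 19 of 49 on chromosome IV, 22 of 80 on chromosome V, 7 of 32 on chromosome I, 4 of 19 on chromosome III and 3 of 3 on chromosome X. The X chromosome members clec-86, clec-265 and clec-266 were above 0 (3 of 3), the last as a bound (0.17), just above the floor on the a-SWCNT array and at 4.70 on the control array.

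Of the 5 runs with at least 3 measured genes, 2 lay wholly on one side of 0 and 3 held genes on both sides. A gene measured on 1 array only takes its sign from the side that reached the floor. In these runs that held for clec-54, clec-59, clec-64 and clec-73, all measured on the control array only. Counts of genes on a side of 0 are thus partly fixed by the floor and are no evidence of a shared change. Of all measured single-gene probe sets, 46.9% were above 0. On chromosome II, the run of clec-58 to clec-61 had all 3 measured genes below 0, at -0.88 for clec-59 (a bound), -0.46 for clec-60 and -1.87 for clec-61. Without clec-59 this run would not have reached 3 measured genes. The run of clec-62 to clec-66 on the same chromosome held clec-66 at 0.97 beside 4 genes between -0.23 and 0.09, among them clec-64 (a bound). On chromosome IV, clec-174 (-2.47) lies between clec-71 (-0.12) and clec-72 (-0.14) in a run of 13 clec genes. Of its 7 measured genes 6 were below 0, among them clec-76 at -0.87 and clec-73 at -0.36 (a bound), and 1 was above, clec-74 at 0.89. The other run there, clec-82 to clec-85, was above 0 in 3 of 3 measured genes (0.34, 0.65 and 0.22). On chromosome V, the run with clec-54 (-0.80, a bound) held clec-57 at -0.11 (a mean that includes a bound), clec-227 at 0.14 and clec-56 at 0.27.

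**Figure D5:**
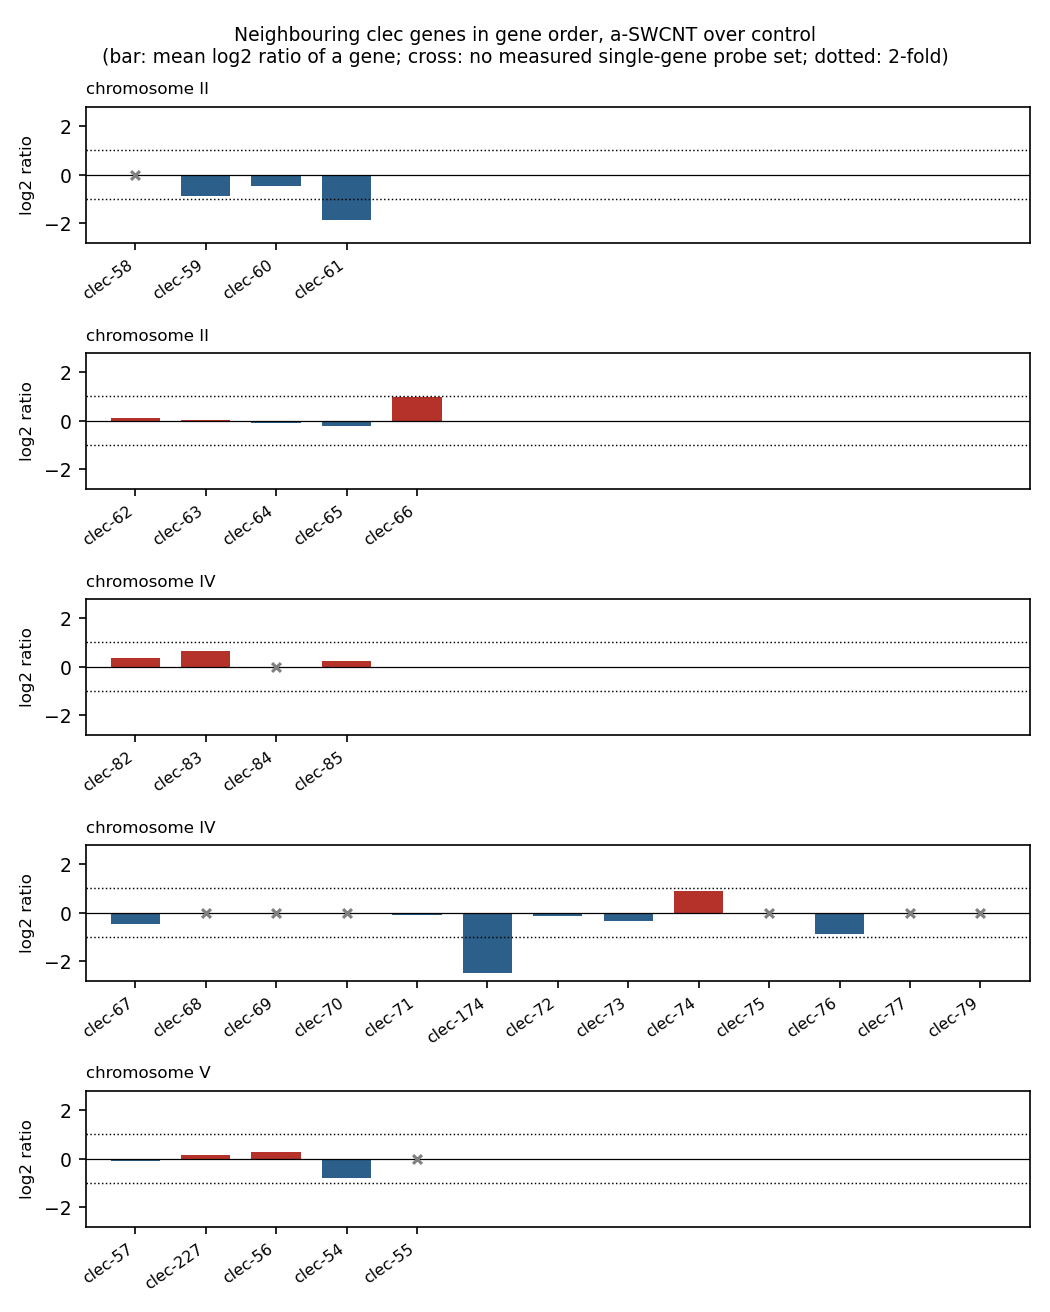
Mean log2 ratio of a-SWCNT over control for each gene in the 5 runs of neighbouring clec genes with at least 3 measured genes, in gene order and without distances. Red bars are above 0 and blue bars below, crosses mark genes with no measured single-gene probe set, and dotted lines mark 2-fold. The bars of clec-61 and clec-174 lie beyond 2-fold. Those of clec-54, clec-59, clec-64 and clec-73 are bounds, and that of clec-57 is partly so. A bound does not show whether its gene passed 2-fold.

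Marker genes of tissues were set beside these values, and in whole worms fewer cells of a type and less RNA per cell cannot be told apart. Intestinal markers were above 0 in 4 of 6 measured genes, at a median of 0.32, with summed signals of 11112 on the a-SWCNT array and 8998 on the control array. Each sum takes, for every gene, the probe set brightest on the control array, a choice that favours a higher control sum. Sperm markers were above 0 in 4 of 4 (22475 on the a-SWCNT array and 17638 on the control array, summed). All 4 are msp genes read by type _x_at, which may bind similar transcripts, so they may not be separate readings. Body wall muscle markers were below 0 in 3 of 3 (4764 on the a-SWCNT array and 8425 on the control array). For unc-15 that sum holds the probe set at -0.68 in log2, and its others were at -0.49 and -0.03. Neuronal markers were below 0 in 4 of 4 by gene mean (2365 on the a-SWCNT array and 2419 on the control array). The probe sets of snb-1 were split, at 0.16 and -0.39, and unc-17 was near the floor. Hypodermal markers were split, at 2 of 4 above 0 with a median of -0.03, pharyngeal markers were above 0 in 1 of 3 (-0.37) and oocyte markers in 2 of 4 (-0.48). Adult markers were present on both arrays despite the L4 label, and all 3 were lower, with summed signals of 1697 on the a-SWCNT array and 3430 on the control array. The part of these differences in the clec results was not tested.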

How the data were processed

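Biotinylated cRNA was prepared from 6 ug of total RNA and hybridised to Affymetrix arrays, per the labels' protocols. The deposited value is a linear signal intensity, 1 per probe set, for which the submitters' processing notes name MAS5 (version, scaling target and detection calls not given in the sources used here). Besides 77 manufacturer's controls, an array held 22548 worm probe sets. Trimmed means (2% removed at each end) were 84.3 on the a-SWCNT array and 211 on the control array as deposited, so the a-SWCNT array was scaled to the control array. Signals below the floor were raised to it, and where only 1 array reached the floor the ratio is a bound. A gene's value is the mean log2 ratio of its measured probe sets. All 236 clec probe sets were found in the reference gene table by identifier, and 0 symbols differed. Named were all clec probe sets at 2-fold or bright, listed clec genes, and the 2 highest and 2 lowest of other lists; clec genes under 2-fold and not bright, and the neighbour runs, were named after their values were seen. Members and lists were chosen with earlier results of these data known. Scripts (Python 3.11.15, numpy 2.4.6, pandas 2.3.3, scipy 1.17.1, statsmodels 0.14.6) were tested on simulated data.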

Additional observations from a re-analysis of the deposited data

How the results depend on the processing

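With equal trimmed means, 6 clec probe sets were higher and 6 lower by 2-fold or more (1.3% and 4.32% of all measured probe sets). The count of higher ones was 12 with equal 75th percentiles (2.26% of all) and 3 on scaling to the hybridisation controls (0.73% of all). As deposited it was 1 (0.0313% of all), where 39 of 84 were lower (62.6% of all measured probe sets). With a floor at the 25th percentile, 17 were higher and 8 lower of 151 probe sets then counted (3.87% and 5.39% of all). The share of lower ones was then near that of all. A floor at the 75th percentile gave 3 higher and 3 lower of 46 (1.3% and 3.17% of all), and no floor, which counts all 236, gave 53 and 38 (11.7% and 11.9% of all). A threshold of 1.5-fold gave 20 and 10 (8.18% and 14.1% of all), and 3-fold gave 3 and 3 (0.192% and 0.698% of all). The median log2 ratio of clec genes, 0.17, was -0.91 as deposited, where that of all measured genes was -1.16, and lay between 0.05 and 0.31 otherwise. As deposited, the log2 ratios of clec-178 (-0.18), clec-47 (-0.25) and clec-53 (-0.19) turned negative, a shift that the unscaled level of the array gives by construction. Scaling, loess span 0.3, floors, thresholds, plain probe sets only, probe sets measured on both arrays and the brightest probe set of a gene were the alternatives. No paired analysis was possible because each group had 1 array.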

Other observations

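Probe sets that the annotation assigns to several genes, at least 1 of them a clec gene, were left out of all values above. There were 22, of which 15 list clec genes only. Measured on at least 1 array were 11, with log2 ratios of a-SWCNT over control between -1.07 and 1.47 and a median of -0.20. Of these, 2 were higher and 1 was lower on the a-SWCNT array by 2-fold or more, against 1.3% and 4.32% of all measured single-gene probe sets.

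As a sign of RNA quality, the manufacturer's probe sets for the ends of 3 worm transcripts gave log2 ratios of 0.04 at the 5′ end and -0.14 at the 3′ end for Gapdh, -0.51 and 0.18 in the same order for Ubiquitin, and -0.42 and -0.75 for Actin. The ends did not differ in 1 direction over the 3 transcripts.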
